A study of Mus musculus with 12 samples.

Results

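Axin2, Nkd1, Znrf3, Rnf43, Lgr5, Sp5, Tbx3, Glul, Rhbg and Lect2 are hepatic target genes of Wnt/β-catenin signalling, most of them known from the hepatocytes next to the central vein. They were taken by symbol from a named list, and the rule itself uses no measured value. All 10 were among the 54838 gene identifiers of the count table, and all 10 were among the 13861 genes with enough counts to test. Liver mRNA of C57BL/6J mice was sequenced in 4 groups of 3 libraries, described by the submitters as biological replicates. Normoxia_PBS and Normoxia_DEX mice were kept in normal air (21% O2), and Hypoxia_PBS and Hypoxia_DEX mice in a chamber at 7% O2 for 24 h. Each pair was then split between PBS and dexamethasone (DEX), a synthetic glucocorticoid receptor agonist, at 10 mg/kg into the peritoneum. Hypoxia mice went back to 7% O2, and all mice were sampled 2 h after the injection. All groups thus received an injection, and no group was left without one. Groups are given without age, sex or time of day, which were not given in the sources used here. The series asks how hypoxia affects glucocorticoid receptor function in liver, so the comparisons below give what DEX and hypoxia each changed in these genes and whether the DEX response differed with oxygen.

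In the liver lobule, blood flows from the portal tract to the central vein, and hepatocytes along this path express different genes. Endothelial cells of the central vein secrete Wnt ligands and R-spondin 3. The ligands bind Frizzled receptors with LRP5 or LRP6, which spares β-catenin from the destruction complex, and β-catenin then activates TCF/LEF-bound genes. The targets include a feedback layer (Axin2, a scaffold of the destruction complex, Nkd1, a Dishevelled-binding inhibitor, and Znrf3 and Rnf43, membrane ubiquitin ligases that remove Frizzled from the surface) and Lgr5, a receptor for R-spondins, which restrain those ligases. Sp5 and Tbx3 are transcription factors. Glul (glutamine synthetase), Rhbg (an ammonia transporter) and Lect2 (a secreted hepatokine) are metabolic and secretory outputs.

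The RefSeq promoter table for GRCm38.p6, the build that is also called mm10, held 7 windows for 6 of the 10 genes, each the 250 bases upstream of a start site. Lgr5, Znrf3, Tbx3 and Rhbg had no entry. The windows below are shown because Axin2, Rnf43 and Sp5 were called lower with DEX in normoxia while Glul was called higher and Lect2 was not called. The search covered 3 motifs on both strands, with overlaps allowed, namely a TCF/LEF core (CTTTGAT or CTTTGAA), a glucocorticoid receptor core (ACANNNTGT) and a HIF core (ACGTG). Capitals mark the matches, and the sequences run 5′ to 3′ on the gene's strand, which is plus for all but Lect2. They lie at chr11:108920099-108920348 (Axin2), chr11:87662837-87663086 (Rnf43), chr2:70474673-70474922 (Sp5), chr1:153899679-153899928 (Glul) and chr13:56548539-56548788 (Lect2).
Axin2: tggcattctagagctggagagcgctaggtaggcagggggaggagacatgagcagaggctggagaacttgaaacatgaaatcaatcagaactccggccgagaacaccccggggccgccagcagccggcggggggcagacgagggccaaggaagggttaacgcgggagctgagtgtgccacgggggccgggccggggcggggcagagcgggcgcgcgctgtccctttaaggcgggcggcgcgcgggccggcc
Rnf43: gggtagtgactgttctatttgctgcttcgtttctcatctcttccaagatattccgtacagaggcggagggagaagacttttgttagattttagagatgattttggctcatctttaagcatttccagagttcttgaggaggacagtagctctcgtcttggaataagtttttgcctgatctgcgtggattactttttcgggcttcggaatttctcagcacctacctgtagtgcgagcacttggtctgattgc
Sp5: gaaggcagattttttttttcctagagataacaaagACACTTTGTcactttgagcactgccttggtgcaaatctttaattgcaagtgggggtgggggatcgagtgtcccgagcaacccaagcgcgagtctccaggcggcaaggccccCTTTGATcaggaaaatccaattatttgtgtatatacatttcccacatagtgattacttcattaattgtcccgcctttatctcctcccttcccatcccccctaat
Glul: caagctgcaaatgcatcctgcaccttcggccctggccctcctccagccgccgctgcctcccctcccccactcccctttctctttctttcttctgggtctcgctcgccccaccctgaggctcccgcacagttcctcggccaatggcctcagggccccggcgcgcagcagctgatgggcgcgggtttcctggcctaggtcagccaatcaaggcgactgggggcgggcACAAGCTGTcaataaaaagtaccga
Lect2: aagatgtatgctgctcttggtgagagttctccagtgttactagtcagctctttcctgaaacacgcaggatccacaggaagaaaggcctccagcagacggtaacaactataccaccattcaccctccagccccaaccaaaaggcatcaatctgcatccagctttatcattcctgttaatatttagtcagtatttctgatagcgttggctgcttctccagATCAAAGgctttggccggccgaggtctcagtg
Sp5 held a TCF/LEF core, CTTTGAT, whose first base lies 104 bases upstream of the start, and a glucocorticoid receptor core, ACACTTTGT, at 215 bases. Glul held a glucocorticoid receptor core, ACAAGCTGT, at 25 bases. Lect2 held the TCF/LEF core on the other strand, ATCAAAG, at 32 bases. The windows of Axin2, Rnf43 (both starts) and Nkd1 held none of the 3, and no window held the HIF core. Among all 32851 promoter windows of this length, 7.48% held the TCF/LEF core, 5.84% the glucocorticoid receptor core and 16.6% the HIF core. A match is a description of letters and not a binding site.

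Depth ranged from 12464687 to 24715995 counts per library. One pair of replicates, Hypoxia_DEX-1 and Hypoxia_DEX-3, was nearly identical, at 1.87 chi-square units per gene, where sampling noise alone gives about 1 and the other pairs within groups gave 11.48 to 42.43. They were kept as separate libraries, so n = 3 and the SDs of Hypoxia_DEX count them separately. The labels call all libraries biological replicates and do not say more on whether this pair came from separate animals. The counts of the 10 genes called with DEX or with hypoxia are also given with the pair summed. Hypoxia_DEX-2 and Hypoxia_PBS-1 stood apart on the second principal component, which otherwise separated DEX from PBS. Hypoxia_PBS-1 had the highest value of its group for 6 of the 10 genes, and Hypoxia_DEX-2 for 7. Uneven ranks were not limited to these 2 libraries. Normoxia_DEX-1 had the lowest value of its group for 7 of the 10, and Normoxia_PBS-1 for 6. Values are CPM, counts relative to the TMM-scaled library size, in the order of libraries 1, 2 and 3. Means carry the SD over n = 3. Fold changes, SEs and adjusted p-values come from the quasi-likelihood test of edgeR, with Benjamini-Hochberg adjustment over all 13861 genes. A gene is called at an adjusted p under 0.05, and "rose" and "fell" are used of called genes only.

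At both oxygen levels, 5 of the 10 genes were lower 2 h after DEX, and 3 of them (Rnf43, Lgr5 and Tbx3) were called at both. In normoxia 5 fell (Lgr5, Sp5, Tbx3, Rnf43 and Axin2) and Glul rose, while 4 were not called. Over all genes tested, 7.4% fell and 9.38% rose in that comparison. Among the 5, Sp5 could pass the low-count filter only through PBS libraries, so its fall is a description. In hypoxia 5 fell (Rnf43, Lgr5, Tbx3, Znrf3 and Nkd1) and 0 rose, against 7.05% of all genes falling and 6.13% rising. The median log2 fold change of the 10 genes was -0.69 in normoxia and -0.83 in hypoxia, beside medians of 0.002 and -0.015 over all genes tested. With Hypoxia_DEX-1 and Hypoxia_DEX-3 summed, 5 of the 10 were called in normoxia and 4 in hypoxia. With Hypoxia_DEX-2 and Hypoxia_PBS-1 left out, 6 and 4 were called.

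**Figure D1:**
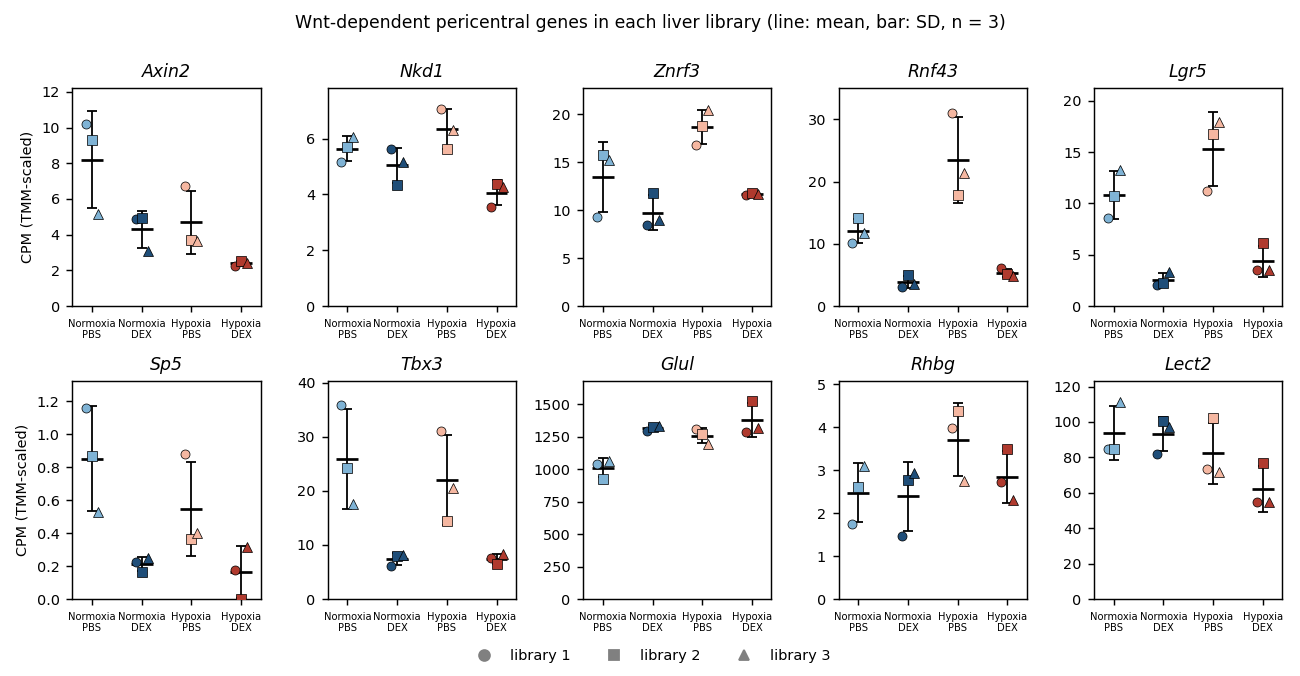
CPM (y axis, starting at 0, its own scale per gene) of the 10 Wnt-dependent genes in each of the 12 libraries, by group (x axis). Symbols are libraries 1 to 3, lines are group means and bars are SDs. The 3 DEX libraries lie below the 3 PBS libraries for Axin2, Rnf43, Lgr5, Sp5 and Tbx3 at both oxygen levels, and Glul lies at 924.6 CPM or above throughout. For Sp5 in hypoxia this rests on 0 to 15 counts per library, and the raw counts overlap.

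Oxygen alone moved fewer of them. In PBS mice hypoxia raised Rnf43 and Glul and lowered Axin2, so 3 of 10 were called, where 18.9% of all genes rose and 16.8% fell. The median log2 fold change of the 10 was 0.25, against 0.007 over all genes. In DEX mice hypoxia lowered Axin2 and Lect2 and raised 0 of the 10, where 20.7% of all genes rose and 22.2% fell. The median there was 0.04, against -0.021 over all genes. The share of the 10 called was thus near the background in PBS mice and below it in DEX mice. With the near-identical pair summed, 2 were called in PBS mice and 0 in DEX mice. With Hypoxia_DEX-2 and Hypoxia_PBS-1 left out, 4 and 2 were called. The comparisons are not independent, because each of the 4 groups enters 2 of them.

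**Figure D2:**
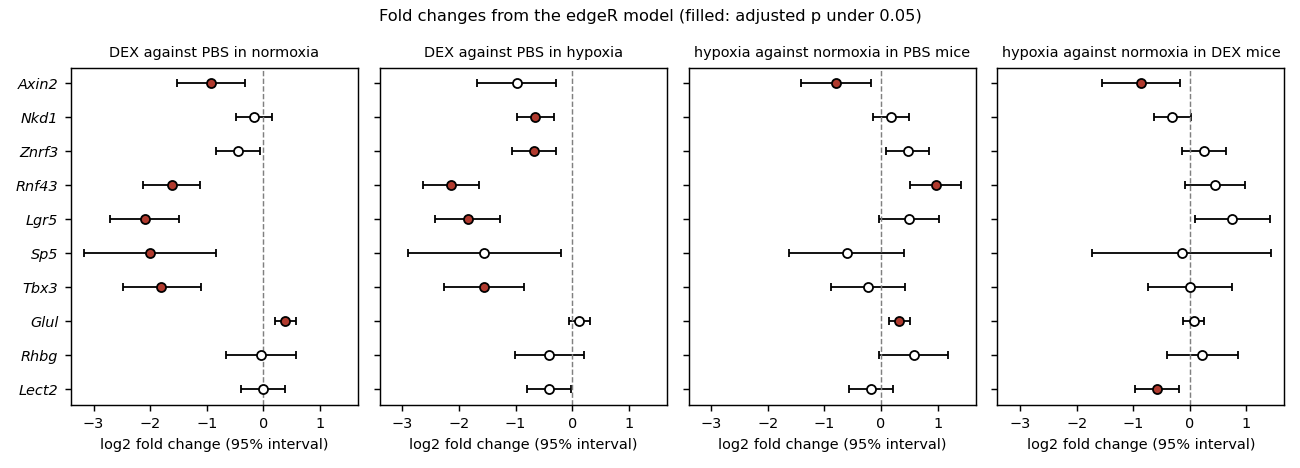
Log2 fold change (x axis) of the 10 genes (y axis) in the 4 comparisons, with 95% intervals of the edgeR model. Filled points have an adjusted p under 0.05. The DEX panels have their points mostly left of 0, while the oxygen panels have points on both sides.

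Rnf43 (ENSMUSG00000034177, chr11:87662722-87735539, plus strand), a membrane ubiquitin ligase for Frizzled, was lower with DEX at both oxygen levels and higher with hypoxia in PBS mice. Its CPM was 10.2, 14.1 and 11.8 in Normoxia_PBS and 3.12, 4.97 and 3.48 in Normoxia_DEX. It was 31.1, 17.9 and 21.4 in Hypoxia_PBS and 6.04, 5.07 and 4.88 in Hypoxia_DEX. Both PBS groups lay wholly above both DEX groups, and Hypoxia_PBS lay wholly above Normoxia_PBS. Rnf43 fell with DEX by 1.62 on the log2 scale in normoxia (SE 0.23, edgeR adjusted p = 0.000327) and by 2.14 in hypoxia (SE 0.224, adjusted p = 7.73e-05), 3.07-fold and 4.41-fold. With hypoxia in PBS mice it rose 1.95-fold (log2 0.97, SE 0.206, adjusted p = 0.0033), and these 3 calls held in all 19 alternatives. Between the DEX groups the difference was 0.45 (adjusted p = 0.163), with overlapping libraries.

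Znrf3 (ENSMUSG00000041961, chr11:5276324-5444847, minus strand), its paralogue, showed smaller differences. Its CPM was 9.27, 15.8 and 15.3 in Normoxia_PBS, 8.45, 11.8 and 9.02 in Normoxia_DEX, 16.8, 18.8 and 20.4 in Hypoxia_PBS and 11.5, 11.8 and 11.7 in Hypoxia_DEX. The hypoxia groups did not overlap, and the normoxia groups did, through Normoxia_PBS-1. Znrf3 fell with DEX in hypoxia by 0.68 (SE 0.18, edgeR adjusted p = 0.0251). That call was lost in 7 of 19 alternatives, including leaving out any 1 of Hypoxia_DEX-1, -2 and -3 or Hypoxia_PBS-2 and -3, with an adjusted p of 0.00366 to 0.0983 over all of them. In normoxia the log2 value with DEX was -0.45 (adjusted p = 0.111), called only without Normoxia_DEX-2 or Normoxia_PBS-1 (0.00597 to 0.359 over the alternatives). Hypoxia in PBS mice gave 0.47 (adjusted p = 0.053). That comparison was called in 5 alternatives, among them without Normoxia_DEX-2, Normoxia_PBS-2 or Normoxia_PBS-3 (0.0166 to 0.171).

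Lgr5 (ENSMUSG00000020140, chr10:115450311-115587780, minus strand), an R-spondin receptor, had the largest fall with DEX in normoxia. Its CPM was 8.58, 10.7 and 13.2 in Normoxia_PBS and 2.04, 2.24 and 3.36 in Normoxia_DEX. It was 11.2, 16.7 and 17.9 in Hypoxia_PBS and 3.49, 6.12 and 3.46 in Hypoxia_DEX. No DEX library reached the lowest PBS library, and Hypoxia_DEX-2 was the highest of the 6 DEX libraries. The fall was 2.10 on the log2 scale in normoxia (SE 0.278, edgeR adjusted p = 0.000208), 4.29-fold, and 1.84 in hypoxia (SE 0.266, adjusted p = 0.000794), 3.59-fold. Both calls held in all 19 alternatives. Hypoxia gave 0.49 in PBS mice (adjusted p = 0.131) and 0.75 in DEX mice (adjusted p = 0.0622), neither called. The first was called in 3 alternatives (0.0116 to 0.343), namely the replicate block, without Hypoxia_PBS-1, and with Hypoxia_DEX-2 and Hypoxia_PBS-1 both left out. The second was called in 5 (0.0173 to 0.189), namely DESeq2, the replicate block, only the compared groups, and without Hypoxia_PBS-1 or Normoxia_DEX-3.

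Axin2 (ENSMUSG00000000142, chr11:108920349-108950783, plus strand), often used as a readout of Wnt/β-catenin activity, was lowest where both treatments were given. Its CPM was 10.2, 9.28 and 5.14 in Normoxia_PBS and 4.87, 4.93 and 3.11 in Normoxia_DEX. It was 6.72, 3.72 and 3.62 in Hypoxia_PBS and 2.25, 2.53 and 2.42 in Hypoxia_DEX. The Hypoxia_DEX libraries lay below all 9 others, and the 2 PBS groups overlapped because Normoxia_PBS-3 lay below Hypoxia_PBS-1. Means were 8.21 ± 2.69, 4.30 ± 1.04, 4.69 ± 1.76 and 2.40 ± 0.143 CPM (SD, n = 3) in Normoxia_PBS, Normoxia_DEX, Hypoxia_PBS and Hypoxia_DEX.

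Axin2 fell with DEX in normoxia by 0.93 (SE 0.28, edgeR adjusted p = 0.039), and with hypoxia by 0.80 in PBS mice (SE 0.283, adjusted p = 0.0435) and by 0.86 in DEX mice (SE 0.318, adjusted p = 0.0448). DEX in hypoxia gave a value of nearly the same size, -0.98 (SE 0.321), which was not called (adjusted p = 0.0637). All 4 adjusted p-values sat near the threshold. The DEX call in normoxia was lost in 11 of 19 alternatives (0.00698 to 0.141), among them without any 1 Hypoxia_DEX or Normoxia_DEX library or without Normoxia_PBS-1 or -2. The hypoxia call in PBS mice was lost in 12 (0.00635 to 0.15), among them without any 1 Hypoxia_DEX library, Hypoxia_PBS-2 or -3, Normoxia_DEX-1 or -2, or Normoxia_PBS-1 or -2. The hypoxia call in DEX mice was lost in 9 (0.00794 to 0.152), among them without any 1 Hypoxia_DEX library, Hypoxia_PBS-2, Normoxia_DEX-1 or -2, or Normoxia_PBS-2. DEX in hypoxia was called in 3, with DESeq2, with the replicate number as a block and without Normoxia_PBS-3 (0.0231 to 0.263). The log2 value stayed below 0 in every alternative of these 4 comparisons. Axin2 shares 209 exon bases with Gm11670 on the opposite strand, and the strand setting of the counting is not stated.

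Nkd1 (ENSMUSG00000031661, chr8:88521354-88594884, plus strand) differed with DEX in hypoxia. Its CPM was 5.16, 5.71 and 6.06 in Normoxia_PBS, 5.61, 4.35 and 5.16 in Normoxia_DEX, 7.07, 5.62 and 6.31 in Hypoxia_PBS and 3.55, 4.37 and 4.25 in Hypoxia_DEX. The hypoxia groups did not overlap and the normoxia groups did. Nkd1 fell with DEX by 0.65 in hypoxia (SE 0.153, edgeR adjusted p = 0.0129), a call lost without Hypoxia_DEX-1 (adjusted p 0.01 to 0.0814 over 19 alternatives). In normoxia the value was -0.17 (adjusted p = 0.508).

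Of the transcription factors, Tbx3 (ENSMUSG00000018604, chr5:119670669-119684724, plus strand), a T-box repressor, fell with DEX at both oxygen levels. Its CPM was 35.9, 24.3 and 17.6 in Normoxia_PBS and 6.18, 7.999 and 8.08 in Normoxia_DEX. It was 31.0, 14.4 and 20.6 in Hypoxia_PBS and 7.52, 6.47 and 8.24 in Hypoxia_DEX. The 6 DEX libraries lay in a narrow band below all 6 PBS libraries, which themselves spread widely. The fall was 1.80 in normoxia (SE 0.311, edgeR adjusted p = 0.00265), 3.49-fold, and 1.56 in hypoxia (SE 0.318, adjusted p = 0.00989), 2.96-fold. The normoxia call held in all 19 alternatives, and the hypoxia call was lost in 1, with Hypoxia_DEX-2 and Hypoxia_PBS-1 both left out (adjusted p = 0.0588, log2 -1.12). The hypoxia comparisons of Tbx3 gave -0.23 in PBS mice and 0.01 in DEX mice, and neither was called. Tbx3 shares 115 exon bases with Tbx3os1 on the opposite strand.

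Sp5 (ENSMUSG00000075304, chr2:70474923-70477729, plus strand), a zinc-finger factor and an early Wnt target, was near the limit of detection, with 0 to 20 counts per library. Its CPM was 1.16, 0.867 and 0.527 in Normoxia_PBS and 0.227, 0.166 and 0.249 in Normoxia_DEX. It was 0.877, 0.365 and 0.403 in Hypoxia_PBS and 0.177, 0 and 0.315 in Hypoxia_DEX. In CPM the DEX groups lay below the PBS groups at both oxygen levels. In hypoxia, however, the raw counts overlapped, at 15, 5 and 6 in Hypoxia_PBS and 3, 0 and 6 in Hypoxia_DEX. Sp5 fell with DEX in normoxia by 2.01 (SE 0.539, edgeR adjusted p = 0.0202). The call no longer passed without library 1 or 2 of Normoxia_DEX or library 1 or 2 of Normoxia_PBS. The range was 0.00391 to 0.0897 over the 18 of 19 alternatives that gave an adjusted p. Its counts were 20, 17 and 15 in Normoxia_PBS-1, Normoxia_PBS-2 and Hypoxia_PBS-1, and 0 to 6 in the DEX libraries. Sp5 could thus pass the low-count filter only through PBS libraries, and its fall is a description. In hypoxia the value was -1.55 with a 95% interval of -2.91 to -0.19 (adjusted p = 0.13).

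Among the metabolic and secretory genes, Glul (ENSMUSG00000026473, chr1:153899944-153909723, plus strand), the most abundant of the 10, went the other way. Its CPM was 1041, 925 and 1060 in Normoxia_PBS, 1290, 1322 and 1334 in Normoxia_DEX, 1309, 1267 and 1196 in Hypoxia_PBS and 1286, 1525 and 1314 in Hypoxia_DEX. All 9 libraries with DEX, hypoxia or both lay above the 3 Normoxia_PBS libraries and overlapped among themselves. Glul rose 1.30-fold with DEX in normoxia (log2 0.38, SE 0.0857, edgeR adjusted p = 0.00681), a call held in all 19 alternatives. It rose 1.25-fold with hypoxia in PBS mice (log2 0.32, adjusted p = 0.011), a call lost without Normoxia_PBS-2 (adjusted p = 0.0564). DEX in hypoxia gave 0.13 (95% interval -0.06 to 0.31) and hypoxia in DEX mice 0.06 (-0.12 to 0.25). Glul shares 116 exon bases with Teddm2 on the opposite strand and 93 with Mir8114.

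Rhbg (ENSMUSG00000104445, chr3:88242874-88254709, minus strand) was not called in any comparison. Its CPM was 1.74, 2.60 and 3.10 in Normoxia_PBS, 1.47, 2.78 and 2.92 in Normoxia_DEX, 3.98, 4.38 and 2.75 in Hypoxia_PBS and 2.72, 3.50 and 2.31 in Hypoxia_DEX. Each group overlapped the groups it was compared with. The log2 values were 0.58 with hypoxia in PBS mice (95% interval -0.03 to 1.19) and -0.04 with DEX in normoxia (-0.66 to 0.58), so the data allow changes of up to these limits. Rhbg shares 1190 of its 1937 exon bases with Gm38392 on the same strand, so its counts may miss shared reads.

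Lect2 (ENSMUSG00000021539, chr13:56542464-56548502, minus strand) was lower in Hypoxia_DEX. Its CPM was 84.7, 84.9 and 111 in Normoxia_PBS, 82.2, 100 and 97.1 in Normoxia_DEX, 73.2, 102 and 71.8 in Hypoxia_PBS and 54.6, 77.1 and 54.9 in Hypoxia_DEX. Within each hypoxia group library 2 was the highest and the other 2 were close together. Lect2 fell with hypoxia in DEX mice by 0.59 (SE 0.177, edgeR adjusted p = 0.02), a call lost in 6 of 19 alternatives, among them without Hypoxia_DEX-1, Hypoxia_DEX-3, Normoxia_DEX-2 or Normoxia_DEX-3 (0.00451 to 0.0779). DEX in hypoxia gave -0.41 (adjusted p = 0.167), called without Hypoxia_DEX-2, also when Hypoxia_PBS-1 was left out with it (0.0349 to 0.475 over the alternatives). DEX in normoxia gave 0.00 (95% interval -0.39 to 0.38).

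Whether the DEX response differed with oxygen was tested as the difference of the 2 log2 fold changes, hypoxia minus normoxia. Of the 10 genes 0 were called higher and 0 lower by edgeR, and DESeq2 also called 0. Over all genes 0.325% were called higher and 0.996% lower. At an unadjusted p under 0.05, 1 of the 10 passed, Nkd1, with -0.48 (95% interval -0.94 to -0.03, edgeR adjusted p = 0.37). The intervals were -1.22 to 0.18 for Rnf43, -0.58 to 1.09 for Lgr5, -0.74 to 1.22 for Tbx3 and -0.97 to 0.85 for Axin2. The median of the 10 differences was -0.24, against -0.022 over all genes. That Nkd1 and Znrf3 were called in hypoxia only, and Axin2, Sp5 and Glul in normoxia only, is therefore not shown to be a difference in response.

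Per kilobase of exon, the levels in Normoxia_PBS spanned a wide range. Glul stood at 303.5 CPM per kb and Lect2 at 101.8, and Tbx3 followed at 3.91. Rnf43 (1.83), Znrf3 (1.71), Axin2 (1.49), Rhbg (1.28), Nkd1 (1.24) and Lgr5 (1.06) then lay close together, and Sp5 was lowest at 0.405. The neighbours from Rnf43 to Lgr5 differed by less than the larger SD of each pair. In Hypoxia_PBS Rnf43 stood at 3.58 CPM per kb, above Tbx3 at 3.32. In Hypoxia_DEX the level of Axin2 was 0.436 and that of Lgr5 0.425 CPM per kb, below Nkd1 at 0.890 and Rnf43 at 0.813.

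The upstream part of the pathway did not move as 1 block. Over all genes tested, 9.38% rose and 7.4% fell with DEX in normoxia, and 6.13% and 7.05% in hypoxia. With hypoxia in PBS mice 18.9% rose and 16.8% fell. A count near these shares is no result about its list. Of 14 Wnt ligands and agonists, 9 were tested. With DEX in normoxia 3 fell (Wnt2, Wnt9b and Wnt5b) and 0 rose, with a median of -0.23. Wnt2, a ligand of pericentral endothelial cells, measured 4.93, 4.84 and 4.88 CPM in Normoxia_PBS and 3.12, 2.78 and 2.67 in Normoxia_DEX. It fell by 0.77 (SE 0.152, edgeR adjusted p = 0.00294). In Hypoxia_PBS it measured 5.44, 5.48 and 5.30 and in Hypoxia_DEX 4.44, 5.07 and 6.35, and DEX in hypoxia gave -0.03 (adjusted p = 0.965). The difference of its DEX responses was 0.75, with an adjusted p of 0.121. Hypoxia in DEX mice raised it by 0.89 (adjusted p = 0.000439).

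Wnt9b, another central-vein ligand, fell with DEX by 0.89 in normoxia (edgeR adjusted p = 0.0241) and by 1.06 in hypoxia (adjusted p = 0.00941). The normoxia call was lost with DESeq2, with no low-count filter, and without Normoxia_DEX-1, Normoxia_DEX-3 or Normoxia_PBS-3 (0.0203 to 0.0954 over the alternatives), and the hypoxia call in 0 of 19 alternatives. Wnt5b rose with hypoxia by 1.87 in PBS mice and by 2.69 in DEX mice, and fell with DEX by 0.997 in normoxia (adjusted p = 0.000864). Rspo3, the R-spondin of the central vein, was called in 0 comparisons, with 3.96 to 5.985 CPM in every library. Its DEX values were -0.18 in normoxia (95% interval -0.53 to 0.17) and 0.16 in hypoxia (-0.20 to 0.51).

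Of 16 receptors and co-receptors, 11 were tested. With DEX in normoxia 3 rose (Fzd4, Lrp5 and Lrp6) and 0 fell, and in hypoxia Lrp6 rose and 0 fell. Lrp6, a Wnt co-receptor, rose from 121, 112 and 121 CPM in Normoxia_PBS to 245, 329 and 268 in Normoxia_DEX (log2 1.25, edgeR adjusted p = 5.79e-06). In hypoxia it rose from 91.2, 101 and 102 to 167, 207 and 165 (log2 0.87, adjusted p = 0.000259). The co-receptor thus rose where Rnf43, Lgr5 and Tbx3 fell. With hypoxia in PBS mice 3 receptors rose (Fzd1, Fzd4 and Lrp5) and 2 fell (Fzd6 and Ryk), and the call of Fzd1 was lost without Hypoxia_PBS-1 (0.00256 to 0.0598 over the alternatives). Lgr4, the other R-spondin receptor of hepatocytes, gave 0.40 with DEX in normoxia (adjusted p = 0.0619) and 0.12 in hypoxia.

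Of 16 cytosolic components, 15 were tested. With DEX in normoxia Csnk1d and Tnks rose and Dvl2 and Amer1 fell, and in hypoxia Csnk1d rose and Amer1 fell. The call of Tnks was lost in 12 of 19 alternatives (0.0228 to 0.204), among them without any 1 Normoxia_PBS library, Normoxia_DEX-2 or -3, Hypoxia_PBS-2 or -3, or Hypoxia_DEX-1 or -3. Ctnnb1, which encodes β-catenin, gave -0.10 and -0.11 with DEX, neither called, with 201.6 to 266.8 CPM over the 12 libraries. Apc, a scaffold of the destruction complex, was called in 0 comparisons. Amer1, a membrane partner of that complex, fell by 1.33 in normoxia (edgeR adjusted p = 0.00193). Its fall of 0.88 in hypoxia (adjusted p = 0.028) no longer passed in 7 alternatives, among them without Hypoxia_DEX-1 or -3 or Hypoxia_PBS-2 or -3 (0.00048 to 0.12 over the alternatives).

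Of 14 nuclear factors, 13 were tested. With DEX in normoxia 4 rose (Tcf7l1, Bcl9l, Pygo1 and Tle1) and 0 fell. In hypoxia 2 rose (Tcf7l1 and Tle1) and 5 fell (Tcf7, Tcf7l2, Bcl9, Tle2 and Tle4). Leaving out 1 library ended 4 of these calls. They were Bcl9l in normoxia (without Normoxia_DEX-2 or -3 or Normoxia_PBS-1 or -2, 0.000462 to 0.137 over the alternatives) and, in hypoxia, Tcf7l1 (Hypoxia_DEX-1 or -3 or Hypoxia_PBS-2 or -3, 0.0132 to 0.0802), Tcf7 (Hypoxia_DEX-1 or -3 or Hypoxia_PBS-3, 0.00809 to 0.0856) and Tle4 (Hypoxia_DEX-3 or Hypoxia_PBS-3, 0.00338 to 0.0673). Tle1, a Groucho corepressor that binds TCF factors, rose by 0.58 in normoxia (edgeR adjusted p = 9.38e-05) and by 0.83 in hypoxia (adjusted p = 1.5e-05). Tcf7l2, a TCF factor of hepatocytes, rose with hypoxia in PBS mice from 8.75, 8.05 and 11.2 CPM to 19.6, 18.0 and 17.9 (log2 0.99, adjusted p = 0.000284). It fell with DEX in hypoxia by 0.72 (adjusted p = 0.00628). Bcl9, a β-catenin coactivator, fell with DEX in hypoxia from 6.02, 6.13 and 6.65 CPM to 2.60, 2.18 and 2.94, a fall of 1.26 (adjusted p = 0.000162), beside a log2 value of 0.02, not called, in normoxia. Of 18 inhibitors only 5 were tested, and 0 were called with DEX at either oxygen level. Notum, a secreted Wnt deacylase, fell with hypoxia by 0.68 in PBS mice (adjusted p = 0.000114) and by 1.13 in DEX mice (adjusted p = 1.48e-06).

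**Figure D3:**
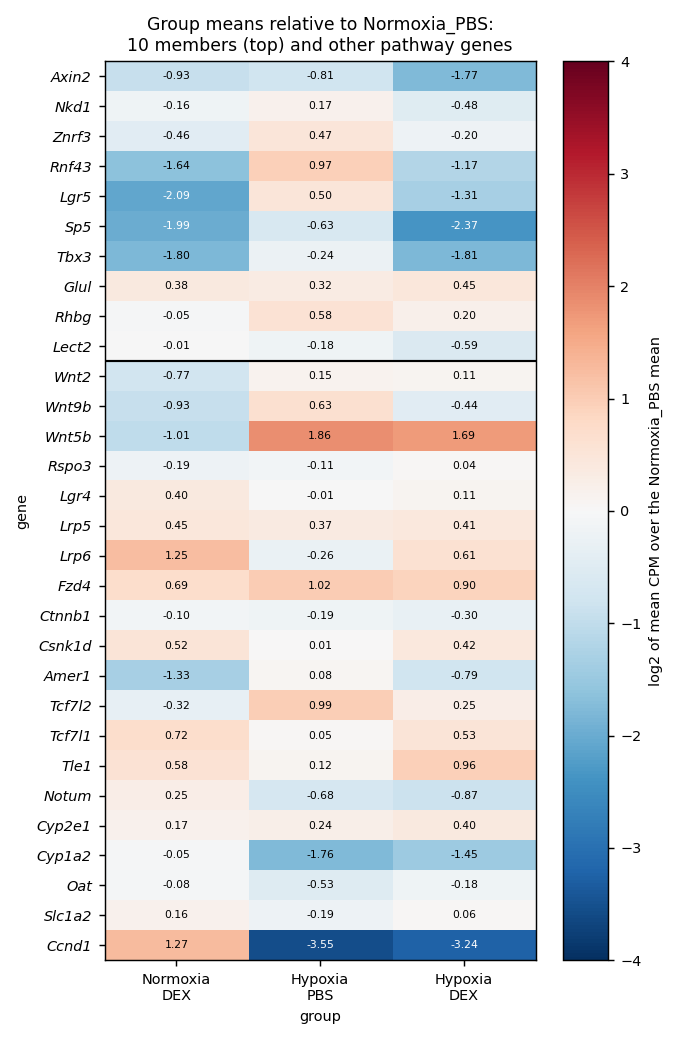
Log2 ratio of each group's mean CPM to the Normoxia_PBS mean (colour and printed number) for the 10 Wnt-dependent genes (above the line) and 20 other genes of the pathway and of pericentral hepatocytes. Rnf43 and Lgr5 are negative in both DEX columns and positive in Hypoxia_PBS, while Glul is positive in all 3 columns.

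Other genes of pericentral hepatocytes did not show the fall with DEX. Of 26 tested, 6 rose and 1 fell with DEX in normoxia, and 3 rose and 2 fell in hypoxia, with medians of 0.04 and 0.17. Over all genes 9.38% rose and 7.4% fell with DEX in normoxia, and 6.13% and 7.05% in hypoxia. Cyp2e1, a major pericentral cytochrome P450, gave 0.17 and 0.16, neither called. Por, the reductase that serves these enzymes, rose by 1.24 in normoxia and by 1.01 in hypoxia (edgeR adjusted p = 4.68e-06 and 6.72e-05). Ccnd1, a cyclin and a Wnt target in other tissues, rose by 1.27 with DEX in normoxia (adjusted p = 0.00218). With hypoxia in PBS mice 8 of the 26 rose and 9 fell, where 18.9% of all genes rose and 16.8% fell. Among those that fell were Ccnd1, by 3.55 (adjusted p = 4.44e-06), and Cyp1a2, by 1.76 (adjusted p = 9.91e-06). Of 25 periportal genes, 5 rose and 0 fell with DEX in normoxia, and 5 rose and 1 fell in hypoxia. Sds, a periportal serine dehydratase, rose by 1.64 and 1.59 (adjusted p = 0.00436 and 0.00762).

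In bulk liver, fewer cells of a type and less RNA per cell cannot be told apart. The shares of all genes called, given above for each comparison, are also the background of the marker counts below. The summed level of 10 hepatocyte markers was 115100 to 125100 CPM in Normoxia_PBS and 141200 to 153900 in Normoxia_DEX, which did not overlap. It was 124800 to 143200 in Hypoxia_PBS and 134700 to 140300 in Hypoxia_DEX. Of these markers 3 rose (Alb, Apoa1 and Tat) and 0 fell with DEX in normoxia, with a median of 0.16. In hypoxia 2 rose (Hnf4a and Tat) and 1 fell (Trf), with a median of 0.07. Alb is also among the periportal genes above, and Cyp2e1 among the pericentral genes. Kupffer cell markers moved with hypoxia, where 12 of 12 fell in PBS mice and their sum went from 527 to 695 CPM in Normoxia_PBS to 215 to 264 in Hypoxia_PBS. With DEX 0 of the 12 were called at either oxygen level. Of 10 central-vein endothelial markers, 2 rose (Thbd and Fabp4) and 3 fell (Wnt2, Wnt9b and Kit) with DEX in normoxia. In hypoxia 1 rose (Fabp4) and 1 fell (Wnt9b). Wnt2, Wnt9b and Rspo3 are also among the ligands and agonists above, so their results are the same ones. The sum of the 10 thus mixes markers that moved in opposite directions. It was 45.0 to 50.8 CPM in Normoxia_PBS, 62.6 to 75.7 in Normoxia_DEX, 55.9 to 100.1 in Hypoxia_PBS and 80.4 to 109.7 in Hypoxia_DEX. Of 14 sinusoidal endothelial markers, 4 rose and 3 fell with DEX in normoxia and 1 rose and 9 fell with hypoxia in PBS mice. Of 12 stellate markers, 2 rose and 1 fell with DEX in normoxia and 7 fell with hypoxia in PBS mice. Of 8 cholangiocyte markers 5 were tested, Cldn4, Cftr and Sctr having too few counts. Only Sox9 was called with DEX, falling at both oxygen levels, and the medians of the 5 were -0.36 in normoxia and 0.23 in hypoxia. The part of these cells in the results above was not tested.

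Among all tested genes outside the list, the 6 whose log2 CPM followed that of Axin2 most closely over the 12 libraries were Commd7 (Pearson r = 0.946), Etv5 (0.940), Arl14ep (0.915), Zfp532 (0.913), Dtx1 (0.913) and Incenp (0.910). These 12 points share the 4 groups, so r is a description. With group means removed, r of these 6 was 0.61 to 0.80, also a description, because they were picked by r over the same 12 libraries. Among the 10 genes, Sp5 (0.784) and Tbx3 (0.760) followed Axin2 most closely, yet they ranked only 304 and 405 among the 13861 tested genes. Nkd1 (0.574), Rnf43 (0.435), Lect2 (0.434) and Lgr5 (0.325) ranked 2030, 3565, 3582 and 4620. Znrf3 gave 0.069 and Rhbg -0.253, and Glul ran opposite (-0.735). With group means removed, Lgr5 gave -0.70, Lect2 -0.45, Znrf3 -0.37 and Rhbg -0.32. Glul gave 0.01, Nkd1 0.05, Rnf43 0.42, Sp5 0.43 and Tbx3 0.66. These values are a description too.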

How the data were processed

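Liver RNA-seq libraries, 12 in 4 groups of 3, were analysed from 1 table of raw counts per gene. The deposited counts were made by the authors and are whole numbers with no normalization. Per the submitters' processing notes the build was mm10, and the tools named, without roles, were HISAT2 2.0.4, featureCounts, Trimmomatic, SAMtools and DESeq2. A stranded Illumina mRNA kit was used, per the labels' protocols. How strand was counted, and on which annotation, was not given in the sources used here. The protocol names both oxygen arms as hypoxia, and groups follow the sample titles. Of 54838 identifiers, 54723 matched GENCODE M21 symbols and positions.

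Genes were filtered with filterByExpr and scaled with TMM in edgeR 4.0.16 (R 4.3.3). A quasi-likelihood model with 1 mean per group over 12 libraries (8 residual degrees of freedom, robust) was fitted to 13861 genes and checked on simulated counts. P-values measure the spread between libraries. Alternatives were DESeq2 1.42.0, RLE size factors, all genes kept without a filter, a replicate block, a fit of only the compared groups, each library left out, Hypoxia_DEX-1 and Hypoxia_DEX-3 summed, and Hypoxia_DEX-2 with Hypoxia_PBS-1 left out.

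The genes, lists and tests were chosen with earlier results of these data known. Named genes are the 10, up to 3 called genes per list, direction and comparison with at least 1 CPM, 13 fixed genes whatever their test, and the 6 nearest to Axin2. Of these, values are given mainly for genes whose calls held in the alternatives. Promoter sequences are from RefSeq (GRCm38.p6). Figures used matplotlib 3.10.9.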

Additional observations from a re-analysis of the deposited data

Results flagged for a closer look

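The DEX response differed between oxygen levels, by edgeR's test of the difference, in 5 of the other pathway and pericentral genes. These 5 were named in part because this test called them, so they are no contrast to the 0 of 10 Wnt-dependent genes. By list, 2 of 13 nuclear factors, 2 of 26 pericentral genes and 1 of 11 receptors were called. Of 9 ligands and agonists, 15 cytosolic components and 5 inhibitors, 0 were called. Outside these lists, Kit was called higher among the 10 central-vein endothelial markers. Of the 14 sinusoidal endothelial markers, Kdr was called higher and Lyve1 lower. Over all genes 0.325% were called higher and 0.996% lower. The difference of the log2 DEX responses, hypoxia minus normoxia, was -1.395 for Ahr (1.33 in normoxia against -0.06 in hypoxia, adjusted p = 0.00137) and -1.283 for Bcl9 (0.02 against -1.26, adjusted p = 0.00858). Both calls held in all 18 alternatives. It was -1.742 for Pygo1 (adjusted p = 0.0344), -0.8231 for Fzd4 (adjusted p = 0.0339) and -0.6767 for Cyp3a11 (adjusted p = 0.036). The last 3 calls were lost in 11, 9 and 10 alternatives, among them for each without Hypoxia_DEX-1 or Hypoxia_DEX-3, with adjusted p-values up to 0.103, 0.112 and 0.122.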

How the results depend on the processing

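No called direction of a named gene reversed in any alternative run. Of the 10 Wnt-dependent genes, the number called with hypoxia in PBS mice was 3, and 2 to 4 with 1 library left out. It was 6 with DEX in normoxia (4 to 6), 5 with DEX in hypoxia (3 to 6), 0 for the difference of the DEX responses (0 to 0) and 2 with hypoxia in DEX mice (0 to 3). Summing Hypoxia_DEX-1 and Hypoxia_DEX-3, or dropping the low-count filter, left 0 of those 2. Over all genes, 1827 were called with DEX in hypoxia, 1160 with that pair summed, 1180 with only the compared groups and 1072 to 2466 with 1 library left out. The difference of the DEX responses called 183 genes, 373 by DESeq2, 70 with the pair summed, 475 with Hypoxia_DEX-2 and Hypoxia_PBS-1 left out and 63 to 306 with 1 library left out. The cause was not tested. Same-numbered libraries were not treated as pairs, because the labels do not tie them and their deviations from the group means correlated at -0.15 to 0.39 over 18 pairs, not positively in every pair. The number as a replicate block gave 5 of the 10 genes with hypoxia in PBS mice. Libraries correlated best with their own number in 12 of 24 cases, so a partial pairing is not excluded by these values. Depth limits Sp5, with 0 to 20 counts per library.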
